A study of Mus musculus with 16 samples.

Results

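The tubulin genes are followed here across adult neural stem cells that lack Fmr1 (KO) and their wild-type counterparts (WT), in ribosome footprints and in RNA. The members were taken by name from the table of estimated counts: 10 genes of the 20409 with a gene symbol, of which 4 encode alpha tubulins (Tuba1a, Tuba1b, Tuba1c and Tuba4a), 5 beta tubulins (Tubb2a, Tubb2b, Tubb3, Tubb4b and Tubb5) and 1 gamma tubulin (Tubg1). The choice used no measured difference. KO cells came from Fmr1 -/y males and WT cells from male littermates, all on the FVB/N strain and 8 to 10 weeks old. The cells were isolated from the dentate gyrus and expanded with EGF and FGF2, so the cultures hold dividing precursors rather than hippocampal tissue. Each genotype has 4 cultures from separate isolations, numbered 1 to 4. From the lysate of each culture, treated with cycloheximide in both genotypes, a footprint library and a cytoplasmic RNA library were made, which gives 16 libraries. Footprint libraries of cultures 1 and 2 carry molecular identifiers of 5 nt and those of cultures 3 and 4 carry identifiers of 8 nt.

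Alpha and beta tubulin fold with the help of the cytosolic chaperonin, pair into a heterodimer and polymerise into microtubules, which form the mitotic spindle of dividing cells and the core of neuronal processes. Gamma tubulin sits in ring complexes that start new microtubules at centrosomes. Cells also adjust tubulin mRNA to the pool of free dimer: TTC5 binds the first residues of tubulin as they leave the ribosome and, through SCAPER and the CCR4-NOT complex, has the mRNA degraded, so tubulin mRNAs are a known case of decay that needs translation. Fmr1 encodes FMRP, which binds mRNAs and is found with translating ribosomes.

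Library totals were 9430732 to 17220236 counts for footprints and 5343042 to 6600023 for RNA. As a check of the labels, Fmr1 had 24.1, 27.0, 12.7 and 14.7 counts scaled by library size (CPM) in the KO footprint libraries 1 to 4, against 129, 149.8, 149.4 and 148.7 CPM in the WT footprint libraries, a log2 fold change of -2.93 (SE 0.22, edgeR quasi-likelihood adjusted p = 0.014). In RNA, Fmr1 had 8.64, 30.9, 10.7 and 3.35 CPM in KO and 40.9, 107, 37.3 and 27.4 CPM in WT, with 1 KO library inside the WT range. Stem cell genes were abundant throughout: in the footprint libraries of both genotypes, Nes, an intermediate filament of neural precursors, lay between 1241 and 2759 CPM and Sox2, a transcription factor of these cells, between 112 and 364 CPM. The microglial genes Aif1 and Cx3cr1 and the endothelial gene Cldn5 had no count in any library. The summed level of 6 astrocyte genes was 1256 to 2070 CPM in KO footprints and 107 to 950.4 CPM in WT footprints, without overlap. In RNA it was 621 to 1414 CPM in KO and 73.2 to 711 CPM in WT, with overlap. The sum was not tested. In KO libraries most of that sum was Sparcl1, which averaged 1478 CPM in KO footprints and 273 CPM in WT footprints. Of the 6 genes 5 had a positive log2 fold change in footprints and 1 of 5 tested in RNA, with 0 past the threshold. The part of astrocyte-like cells in the tubulin values was not tested. In bulk libraries, fewer cells of a type and less RNA per cell cannot be told apart.

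Near-identical paralogs share reads. Tuba1a, Tuba1b and Tuba1c encode almost the same protein, as do Tubb2a and Tubb2b, and the counting program divides reads that match several genes by estimation. Values of single genes within these groups are therefore uncertain, most of all in footprints, which are short and come from coding sequence, and sums over each group are given beside them. On the mouse assembly GRCm38.p6, Tuba1a (chr15:98949847-98953501), Tuba1b (chr15:98931429-98934390) and Tuba1c (chr15:99029891-99038105) lie in a cluster on chromosome 15. Tubb2a (chr13:34074278-34078008) and Tubb2b (chr13:34127008-34130354) lie near each other on chromosome 13. The other members are alone on chromosomes 1 (Tuba4a), 8 (Tubb3), 2 (Tubb4b), 17 (Tubb5) and 11 (Tubg1).

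Because Tuba1b and Tubb5 varied together across the cultures and the neighbouring Tuba1a did not, as described below, the 250 bases before the RefSeq start site of these 3 genes are shown. They were chosen after the values were seen. All 3 are given 5′ to 3′ on the minus strand of GRCm38.p6 (Tuba1b chr15:98934391-98934640, Tubb5 chr17:35838302-35838551, Tuba1a chr15:98953502-98953751), and capitals mark the motif CCAAT, the box bound by NF-Y in many cell cycle genes, searched on both strands.
Tuba1b: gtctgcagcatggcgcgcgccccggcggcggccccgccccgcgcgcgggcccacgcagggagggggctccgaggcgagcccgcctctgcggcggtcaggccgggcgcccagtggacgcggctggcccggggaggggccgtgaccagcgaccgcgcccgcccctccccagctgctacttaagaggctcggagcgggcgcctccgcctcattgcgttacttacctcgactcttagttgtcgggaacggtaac
Tubb5: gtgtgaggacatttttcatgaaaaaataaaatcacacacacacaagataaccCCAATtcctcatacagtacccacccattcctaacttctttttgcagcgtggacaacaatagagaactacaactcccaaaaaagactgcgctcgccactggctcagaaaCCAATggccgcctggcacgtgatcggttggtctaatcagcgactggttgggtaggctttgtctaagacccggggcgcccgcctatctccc
Tuba1a: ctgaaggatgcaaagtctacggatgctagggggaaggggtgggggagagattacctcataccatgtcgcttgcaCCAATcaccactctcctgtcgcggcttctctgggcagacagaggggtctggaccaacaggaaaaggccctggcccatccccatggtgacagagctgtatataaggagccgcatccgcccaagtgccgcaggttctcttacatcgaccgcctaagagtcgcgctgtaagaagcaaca
The Tuba1b sequence has no CCAAT match, Tubb5 has 2 and Tuba1a has 1. Windows of 250 bases before and 50 after the start were at hand for 8 of the 10 members, and 5 of the 8 held the motif (Tuba1a, Tuba1c, Tubb3, Tubb4b with 5 matches, and Tubb5), against 37.4% of all 32851 windows. TATAAA was found in 2 of the 8 (Tubb2a and Tubb4b) against 13.6% of all windows, and TTTGAA in 1 (Tubb4b) against 17.9%. A match to any of these motifs cannot contain a match to another. GC content was 72.7% for Tuba1b, against a median of 52.7% over all windows.

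Levels per transcript length, in the authors' TPM, were led by the same few genes in both genotypes. Tubb5, a broadly expressed beta tubulin, averaged 2128 ± 329 TPM in KO footprints and 1796 ± 603 TPM in WT footprints (SD, n = 4 each), with no overlap with the next member in either genotype. Tubb4b, another widely expressed beta tubulin that is also used in cilia, followed at 615 ± 68.2 TPM in KO and 565 ± 148 TPM in WT. Tubb2a, Tubb2b and Tuba1a came next, between 242 and 278 TPM in KO and between 266 and 321 TPM in WT, and their ranges overlapped. Tuba1b stood below them at 90.8 ± 15.5 TPM in KO footprints and 67.3 ± 27.9 TPM in WT footprints. Tubg1 and Tubb3 overlapped each other in both genotypes, Tuba4a averaged 6.75 TPM in KO and 3.5 TPM in WT, and Tuba1c was at or near 0.

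The order in RNA was different. Tubb5, Tuba1b and Tuba1a overlapped at the top, with means of 2424, 1977 and 1795 TPM in KO RNA and of 2059, 1599 and 2077 TPM in WT RNA. Tubb2b, Tubb2a and Tubb4b formed the next step, with means between 535 and 743 TPM in KO and between 563 and 934 TPM in WT. Each of the remaining 4 members averaged at most 115 TPM in KO and 93.8 TPM in WT. The 10 genes together held 0.371% ± 0.046 of all TPM in KO footprints and 0.340% ± 0.069 in WT footprints, and 0.826% ± 0.072 in KO RNA and 0.801% ± 0.111 in WT RNA.

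The summed alpha to beta ratio differed between the assays. Tuba1a and Tuba1b made up most of the alpha TPM, and how many of their footprint reads were discarded or assigned elsewhere is not known. The members did not split cleanly by class: relative to RNA, footprints of Tubb2a and Tubb2b were also low and those of Tuba4a were not, as given below. Summed alpha TPM over summed beta TPM was 0.102 ± 0.014 in KO footprints and 0.114 ± 0.023 in WT footprints, and 0.870 ± 0.029 in KO RNA and 0.869 ± 0.067 in WT RNA (SD, n = 4 each). Beta outnumbered alpha in every library of both assays. The ratio stayed between 0.0841 and 0.143 in footprints and between 0.798 and 0.950 in RNA. The 2 genotypes overlapped in both assays. Within the beta tubulins, Tubb5 held 64.0% ± 6.0 of the footprint TPM in KO and 58.2% ± 10.9 in WT. Within the alpha tubulins, Tuba1b held 52.2% ± 9.4 of the RNA TPM in KO and 41.5% ± 18.1 in WT, and the lowest WT library was at 17.2%.

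**Figure D1:**
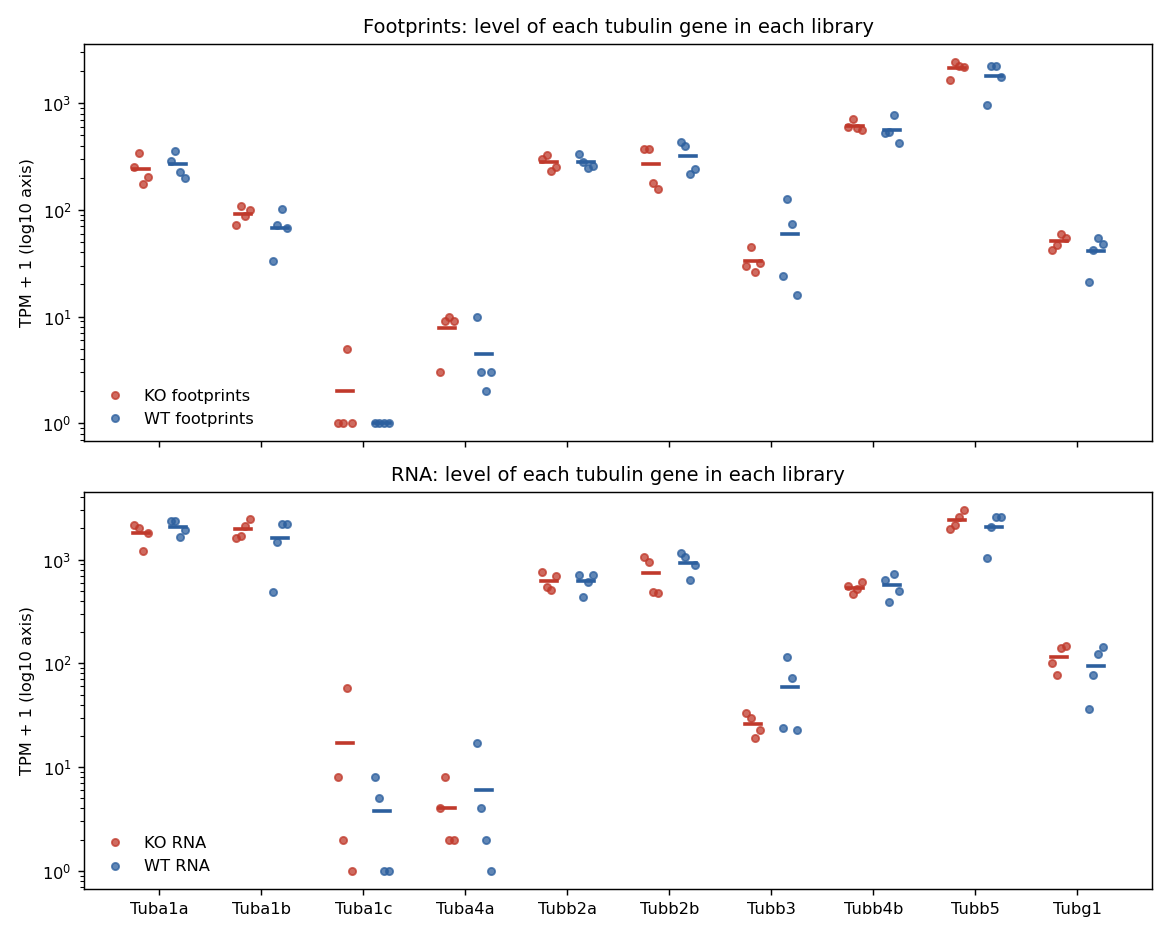
Level of each tubulin gene in each library, as TPM + 1 on a log10 axis, with footprints above and RNA below, KO libraries in red left of WT libraries in blue, points for libraries and bars for group means. Tubb5 leads in footprints (means of 2128 TPM in KO and 1796 TPM in WT), while Tuba1a and Tuba1b stand beside it in RNA only.

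Loss of Fmr1 was compared first at the level of each member, the question being whether tubulin footprints or RNA differ between KO and WT cells. No tubulin gene passed the threshold (adjusted p under 0.05) in footprints or in RNA, and in RNA Fmr1 itself did not pass either. The members with the largest differences were Tuba1c, Tuba4a and Tubb3, whose values also varied widely between cultures of 1 genotype. In both assays the KO and WT ranges of each tested member overlapped, while 1.88% of all genes in footprints and 1.28% in RNA had ranges that did not. Of 9 members tested in footprints, 5 had a positive and 4 a negative log2 fold change, with a median of 0.11 against 0.01 over all genes. Of 10 tested in RNA, 5 were positive and 5 negative, with a median of -0.02 against 0.01. Over all genes, 0.0262% were called higher and 0.00872% lower in footprints (0.0349% in all), and 0.00901% were called higher and 0 lower in RNA, so a count of 0 members is close to the background.

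Tuba1a, the main alpha tubulin of the developing brain, had 350.3, 483, 262 and 298 CPM in KO footprints 1 to 4, against 373, 513, 351 and 316 CPM in WT footprints. Its RNA was at 2510.3, 2222, 1559.7 and 2347 CPM in KO and 2578, 2431, 2142 and 2672 CPM in WT. The KO value was below the WT value of the same number in 4 of 4 pairs in both assays, the groups overlapped, and the differences did not pass. The share of all genes with 4 of 4 pairs in 1 direction was not counted, here or for the members below. That the same number marks a pair is an assumption. Both assays of a culture share a lysate, so they do not repeat the result independently. The log2 fold change was -0.17 in footprints (95% interval -0.54 to 0.20, edgeR adjusted p = 0.999) and -0.19 in RNA (-0.63 to 0.26, adjusted p = 1).

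Tuba1b, an alpha tubulin expressed in most tissues, had 98.5, 154, 132 and 144 CPM in KO footprints and 42.2, 102, 154 and 105 CPM in WT footprints. In RNA it had 1907, 1855, 2731 and 3206 CPM in KO and 541, 1516, 2869 and 3034 CPM in WT. WT culture 1 was the lowest of 8 in both assays. The log2 fold change was 0.45 in footprints (-0.28 to 1.18, edgeR adjusted p = 0.999) and 0.28 in RNA (-0.77 to 1.34, adjusted p = 1). Without WT culture 1 these were 0.18 and -0.03. Summed over Tuba1a, Tuba1b and Tuba1c, the log2 fold change was -0.03 in footprints (-0.44 to 0.38) and 0.04 in RNA (-0.45 to 0.53).

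Tuba1c, the third gene of the cluster, was at the limit of detection. It had 6, 2, 69 and 6 counts in KO footprints and 0, 0, 0 and 1 in WT footprints, too few to be tested. Its RNA counts were 50, 9, 449 and 4 in KO and 36, 27, 0 and 0 in WT. KO culture 3 stood apart in both assays. Tuba1c CPM in footprints was higher in each KO library than in each WT library. At the closest this was 0.119 CPM in KO culture 2 against 0.108 CPM in WT culture 4, or 2 counts against 1. Of the genes tested, which do not include Tuba1c, 1.04% had a split in this direction. In RNA the log2 fold change was 2.91 (SE 1.61, -0.70 to 6.52, edgeR adjusted p = 1), and it was 0.34 without KO culture 3.

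Tuba4a, an alpha tubulin of mature neurons and some other cells, had 2.57, 12.0, 13.0 and 11.7 CPM in KO footprints and 11.5, 3.04, 1.12 and 2.92 CPM in WT footprints. Its RNA was at 3.89, 7.97, 1.30 and 1.22 CPM in KO and 17.9, 3.07, 1.65 and 0 CPM in WT. KO cultures 3 and 4 were high in footprints and low in RNA. The log2 fold change was 1.24 in footprints (-0.60 to 3.07, edgeR adjusted p = 0.999) and -0.64 in RNA (-3.26 to 1.98, adjusted p = 1). Without WT culture 1 the values were 2.03 in footprints and 1.18 in RNA, and without WT culture 3 the footprint value was 0.72.

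Among the beta tubulins, Tubb5 had 2281, 3416, 3335 and 3158 CPM in KO footprints and 1236, 3152, 3398 and 2769 CPM in WT footprints. In RNA it had 2252, 2330, 3218 and 3853 CPM in KO and 1117, 2069, 3296 and 3435 CPM in WT. WT culture 1 was again the lowest of 8 in both assays, and the other 7 overlapped. The log2 fold change was 0.23 in both assays (-0.44 to 0.89 in footprints, edgeR adjusted p = 0.999, and -0.56 to 1.03 in RNA, adjusted p = 1), and -0.01 in both without WT culture 1.

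Tubb4b had 824, 1008, 871 and 816 CPM in KO footprints and 685, 753, 1177 and 674 CPM in WT footprints. Tubb4b RNA was at 642, 505, 652 and 767 CPM in KO and 695, 393, 918 and 677 CPM in WT. The groups overlapped widely, with WT culture 3 the highest in both assays. The log2 fold change was 0.11 in footprints (-0.36 to 0.58) and -0.06 in RNA (-0.67 to 0.54).

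Tubb2a, a beta tubulin enriched in brain, had 416, 457, 348 and 366 CPM in KO footprints and 435, 397, 374 and 403 CPM in WT footprints, a log2 fold change of -0.03 (-0.28 to 0.23, edgeR adjusted p = 0.999). The spread between replicates of its footprints was the smallest of the tested members, an SD of 0.14 in log2 units against a median of 0.35 over all genes. In RNA it had 870.1, 594, 644 and 886 CPM in KO and 777, 438, 780.2 and 958 CPM in WT, a log2 fold change of 0.02 (-0.58 to 0.62).

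Tubb2b, its neighbour and a beta tubulin of the developing brain, had 512, 526, 265 and 224 CPM in KO footprints and 559.8, 558, 328 and 384 CPM in WT footprints. In RNA it had 1222, 1021, 621 and 613 CPM in KO and 1257, 1072, 803 and 1190.0 CPM in WT. As with Tuba1a, and with the same limits, each KO value was below the WT value of the same number, in 4 of 4 pairs in both assays. In footprints the log2 fold change was -0.32 (-0.64 to -0.01), with an unadjusted p of 0.0472 and an edgeR adjusted p of 0.999. In RNA it was -0.31 (-0.94 to 0.31, adjusted p = 1). Unadjusted p-values under 0.05 occurred for 4.59% of all genes in footprints. Summed over Tubb2a and Tubb2b, the log2 fold change was -0.17 in footprints (-0.44 to 0.10) and -0.18 in RNA (-0.67 to 0.32).

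Tubg1 had 57.3, 65.3, 90.0 and 79.0 CPM in KO footprints and 25.9, 58.6, 81.3 and 74.9 CPM in WT footprints. Its RNA was at 118, 85.3, 179 and 188 CPM in KO and 39.1, 79.5, 156 and 195 CPM in WT. WT culture 1 was the lowest of 8 in both assays, as for Tuba1b and Tubb5. The KO value was above the WT value of the same number in 4 of 4 pairs in footprints, with KO over WT ratios of 2.21, 1.11, 1.11 and 1.05. In RNA this held in 3 of 4 pairs, and the limits given for Tuba1a apply. The log2 fold change was 0.33 in footprints (-0.24 to 0.89, edgeR adjusted p = 0.999) and 0.28 in RNA (-0.78 to 1.34, adjusted p = 1), and 0.09 and -0.01 without WT culture 1.

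**Figure D2:**
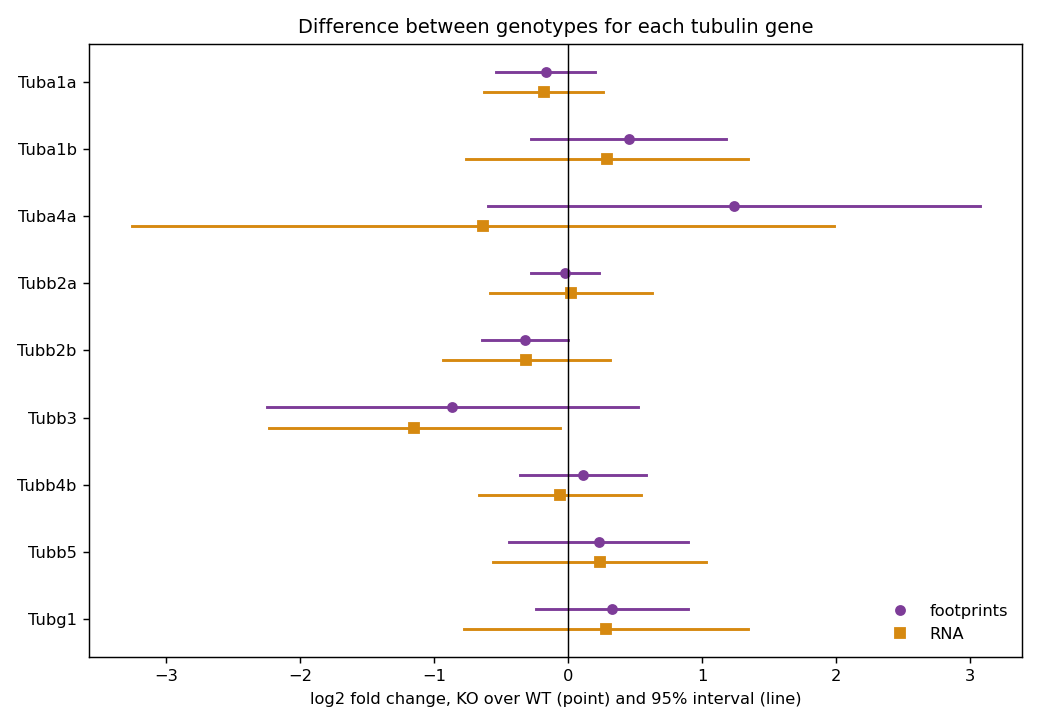
Log2 fold change of KO over WT for 9 tubulin genes, as the point, with its 95% interval as the line, for footprints (purple circles) and RNA (orange squares). Intervals that exclude 0 belong to Tubb2b in footprints (-0.64 to -0.01) and Tubb3 in RNA (-2.24 to -0.06), and neither passed after adjustment over all genes.

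Tubb3, the beta tubulin used as a marker of young neurons, differed widely between the WT cultures. It had 40.5, 62.5, 37.9 and 45.0 CPM in KO footprints and 30.3, 180, 111 and 23.8 CPM in WT footprints. Its RNA was at 36.9, 31.4, 22.8 and 28.5 CPM in KO and 25.5, 117, 92.5 and 30.1 CPM in WT. WT cultures 2 and 3 were high in both assays, and WT cultures 1 and 4 lay below the KO range in footprints and within it in RNA. KO over WT gave a log2 fold change of -0.87 in footprints (-2.25 to 0.52, edgeR adjusted p = 0.999) and -1.15 in RNA (-2.24 to -0.06, unadjusted p = 0.04, adjusted p = 1). Without WT culture 2 these were -0.15 in footprints and -0.72 in RNA. Unadjusted p-values under 0.05 occurred for 1.87% of all genes in RNA.

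The 2 WT cultures with high Tubb3 were unlike in other neuronal genes. In WT culture 2, Gap43, a growth cone protein, was at 146 CPM in footprints and 71.6 CPM in RNA, and Elavl3, a neuronal RNA-binding protein, was at 14.1 CPM in footprints and 20.1 CPM in RNA. In WT culture 3, Gap43 was at 0.609 CPM in footprints and 0.989 CPM in RNA. Dcx, a microtubule-binding protein of migrating neuroblasts, reached 10.7 CPM in WT culture 2 footprints and at most 1.85 CPM in any other footprint library. Over all 12 neuroblast and neuron genes, summed footprints ranged from 959 to 1274 CPM in KO and from 1226 to 2075 CPM in WT, mostly Map2. Of the 10 tested in footprints, 3 had a positive and 7 a negative log2 fold change, the 4 tested in RNA were negative, and 0 passed in either assay. Rbfox3, a marker of mature neurons, was at 1.69 CPM or less in every library. The part of neuronal cells in the Tubb3 values was not tested.

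**Figure D3:**
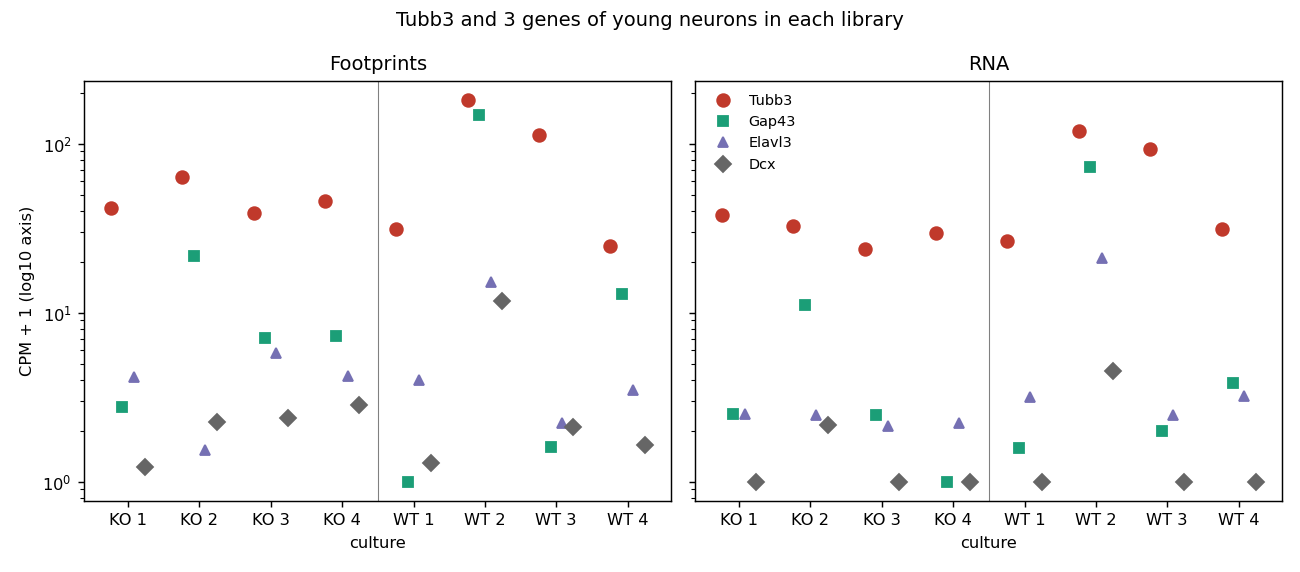
CPM + 1 on a log10 axis for Tubb3 (red circles) and 3 genes of young neurons, Gap43, Elavl3 and Dcx, in the footprint and RNA library of each culture, KO left of WT. Tubb3 is high in WT cultures 2 and 3 (180 and 111 CPM in footprints), and the other 3 genes are high in WT culture 2 alone of this pair.

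Like Tuba4a, a few synaptic and neuronal transcripts had footprints but little RNA in KO cultures 3 and 4. Syt1, a synaptic vesicle protein, had 24.7 and 25.3 CPM in footprints of KO cultures 3 and 4 and 0.488 and 0 CPM in their RNA. Stmn2, a stathmin of growing neurites, had 13.0 and 12.2 CPM in footprints and 0 in RNA. In WT cultures 3 and 4, Stmn2 had 0.913 and 2.27 CPM in footprints and 0.165 and 0 CPM in RNA. Over both genotypes its footprints were higher with 8 nt than with 5 nt identifiers (log2 difference 8.06, SE 0.65, edgeR adjusted p = 0.00942). Identifier length and culture set cannot be told apart. Snap25, from the same neuronal list, had 15.4 and 16.6 CPM in footprints and 0.163 and 0.609 CPM in RNA of KO cultures 3 and 4. Tubb4a, the beta tubulin of oligodendrocytes and neurons, had 12.0 and 12.4 CPM in footprints and 2.44 and 0 CPM in RNA. Both libraries of a culture came from the same lysate. Other neuronal genes did not share this pattern: Prox1, a transcription factor of dentate granule neurons, had 29.6 and 29.1 CPM in footprints and 32.6 and 24.7 CPM in RNA of KO cultures 3 and 4. KO culture 2 had 12.0 CPM of Tuba4a in footprints, with 0.119 CPM of Syt1 and 0.0594 CPM of Stmn2. These genes were chosen after their values were seen, and what sets the difference was not tested.

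Across the cultures some tubulins varied together and others did not follow them. Tuba1b, Tubb5 and Tubg1 were lowest in WT culture 1, and in RNA they were higher in cultures 3 and 4 than in cultures 1 and 2. Tuba1a and Tubb2a did not share this pattern, and Tubb2b was lower in cultures 3 and 4 in footprints. These sets were read from the values and are a description.

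The 3 genes that were low in WT culture 1 were so together with genes of G2 and mitosis. The mean log2 CPM of 20 such genes was 8.14, 8.17, 8.14 and 8.16 in KO footprints and 6.02, 7.84, 8.07 and 8.14 in WT footprints. In RNA it was 6.87, 7.59, 7.03 and 6.85 in KO and 4.88, 7.01, 6.94 and 6.89 in WT. WT culture 1 was the lowest of 8 in both assays, while Tuba1a, Tubb2a and Tubb2b were not low there. The match did not hold elsewhere: in RNA, KO culture 2 had the highest mitotic mean but the lowest KO values of Tuba1b (1855 CPM) and Tubg1 (85.3 CPM). Low means in WT culture 1 were also seen in other lists, which were not checked for genes that act in mitosis. The means of chaperonin and prefoldin, gamma-tubulin ring complex, and severing and depolymerising genes were also lowest in WT culture 1 in both assays. The mean of tubulin-modifying genes was the highest there. All 20 mitotic genes had a positive KO over WT log2 fold change in both assays (medians of 0.49 in footprints and 0.38 in RNA), and 0 passed. Whether the cell cycle state of WT culture 1 sets its tubulin values was not tested.

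**Figure D4:**
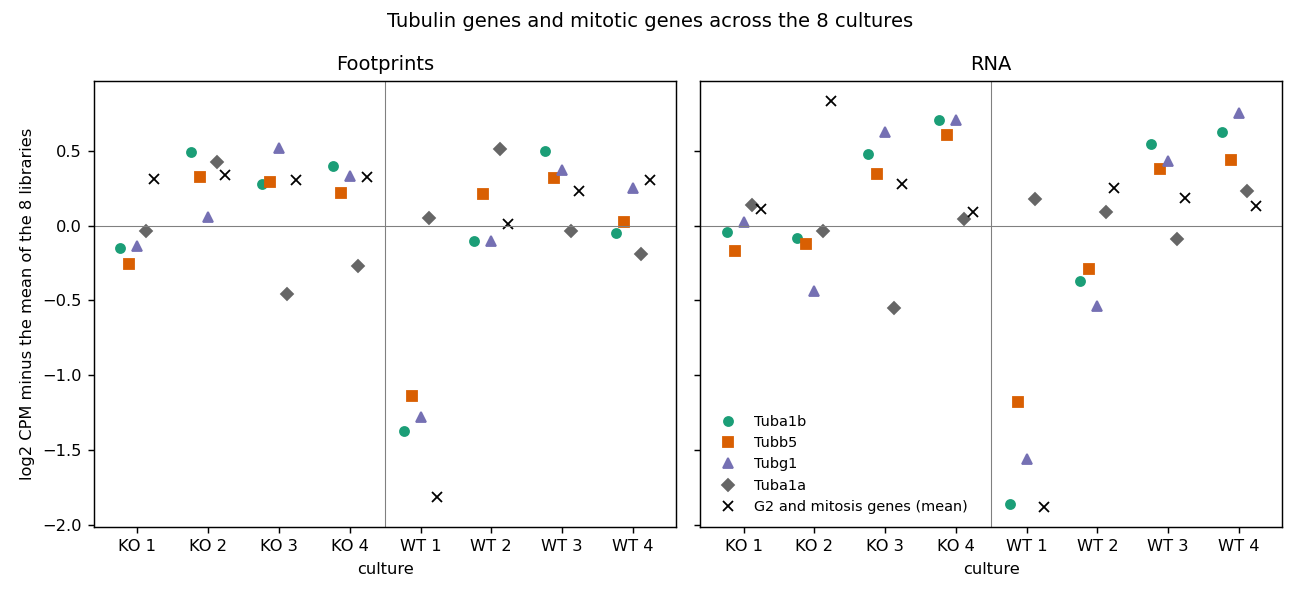
Log2 CPM of Tuba1b, Tubb5, Tubg1 and Tuba1a, and the mean over 20 G2 and mitosis genes (crosses), each minus its own mean over the 8 libraries of an assay, with KO cultures left of WT cultures. In WT culture 1, Tuba1b, Tubb5, Tubg1 and the mitotic genes are low in both assays (the mitotic mean is 6.02 in footprints and 4.88 in RNA), and Tuba1a is not.

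Cultures 3 and 4 were also compared with cultures 1 and 2 over both genotypes. In RNA, 3 members were higher in cultures 3 and 4 and 1 was lower, where 12.1% of all genes were called higher and 13.1% lower. The 3 were Tubg1 (log2 difference 1.21, SE 0.27, edgeR adjusted p = 0.016), Tubb5 (0.85, SE 0.21, adjusted p = 0.0234) and Tuba1b (1.09, SE 0.32, adjusted p = 0.0383), and the lower one was Tuba4a (-2.91, SE 0.88, adjusted p = 0.0416). Leaving out 1 library gave 1 to 4 members past the threshold. There was 1 without KO culture 2, KO culture 4 or WT culture 3, 2 without WT culture 4 and 3 without WT culture 1. These counts can include members other than the 4 named. Tuba1c and Tubb2b each passed in at least 1 of these fits, with lowest edgeR adjusted p-values of 0.0329 and 0.041.

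In footprints, where identifier length follows the same split and the 2 cannot be told apart, 1 member was lower in cultures 3 and 4 and 0 were higher, against 11.5% and 7.56% of all genes. That member was Tubb2b (-0.87, SE 0.14, adjusted p = 0.0123 by edgeR), whose adjusted p was 0.0508 without WT culture 3. Its RNA difference of -0.54 had the same sign and an adjusted p of 0.0725. Tuba1a at -0.49 (adjusted p = 0.0648) and Tubg1 at 0.67 (adjusted p = 0.0864) did not pass in footprints.

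Footprints were then set against RNA from the same cultures, as counted footprints per RNA relative to the typical gene. For members that share reads, this ratio also depends on how reads were assigned, so it is not a direct measure of ribosome coverage. Over both genotypes 5 tubulin genes had fewer footprints than their RNA level would give at the typical ratio, and 1 had more. Both main alpha tubulins were far below the typical gene, the Tubb2 pair and Tubg1 were moderately below it, Tubb4b was above it, and Tubb5, Tubb3 and Tuba4a did not pass. Many genes pass in this comparison, 32.3% of all genes higher and 30.6% lower (62.9% in all), so the sizes are given with the calls.

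Tuba1b had 0.052, 0.083, 0.048 and 0.045 footprint CPM per RNA CPM in KO cultures 1 to 4 and 0.078, 0.067, 0.054 and 0.035 in WT cultures. The log2 difference between footprints and RNA was -4.05 (SE 0.36, edgeR adjusted p = 9.79e-08), with 0.166% of all genes tested at or below it. Tuba1a had 0.140, 0.217, 0.168 and 0.127 in KO cultures and 0.145, 0.211, 0.164 and 0.118 in WT cultures, a log2 difference of -2.45 (SE 0.16, edgeR adjusted p = 4.63e-09). Every culture was well below 1 for both genes. Summing Tuba1a, Tuba1b and Tuba1c, a choice made after the values were seen, gave -3.02 (SE 0.17, adjusted p = 6.97e-10), which lies between the values of Tuba1a and Tuba1b. Reads assigned to other genes or discarded for matching several places are not recovered by that sum, and their part was not tested.

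Tubb2b had a ratio of 0.431 ± 0.062 in KO cultures and 0.424 ± 0.082 in WT cultures (SD, n = 4 each), a log2 difference of -1.02 (SE 0.22, adjusted p = 9.16e-04 by edgeR). Tubb2a had 0.550 ± 0.155 in KO and 0.592 ± 0.218 in WT, a log2 difference of -0.70 (SE 0.16, adjusted p = 0.00113), and the pair summed gave -0.87. Tubg1 had 0.544 ± 0.152 in KO and 0.576 ± 0.156 in WT, a log2 difference of -0.77 (SE 0.32, adjusted p = 0.0447). The Tubg1 call was lost on leaving out both libraries of any culture but WT culture 1, with edgeR adjusted p-values from 0.0505 to 0.105.

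Tubb4b had 1.42 ± 0.40 footprint CPM per RNA CPM in KO cultures and 1.30 ± 0.44 in WT cultures, a log2 difference of 0.57 (SE 0.17, edgeR adjusted p = 0.00964). Tubb5 had 1.08 ± 0.27 in KO and 1.12 ± 0.30 in WT, a log2 difference of 0.28 (adjusted p = 0.346). Tubb3 had 1.58 ± 0.37 in KO and 1.18 ± 0.30 in WT, a log2 difference of 0.71 (adjusted p = 0.138). With culture as a block, Tubb3 at 0.62 (adjusted p = 7.93e-04) and Tubb5 at 0.30 (adjusted p = 0.0216) also passed. The footprint and RNA libraries were prepared by different methods, and the part of the preparation in these ratios was not tested.

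**Figure D5:**
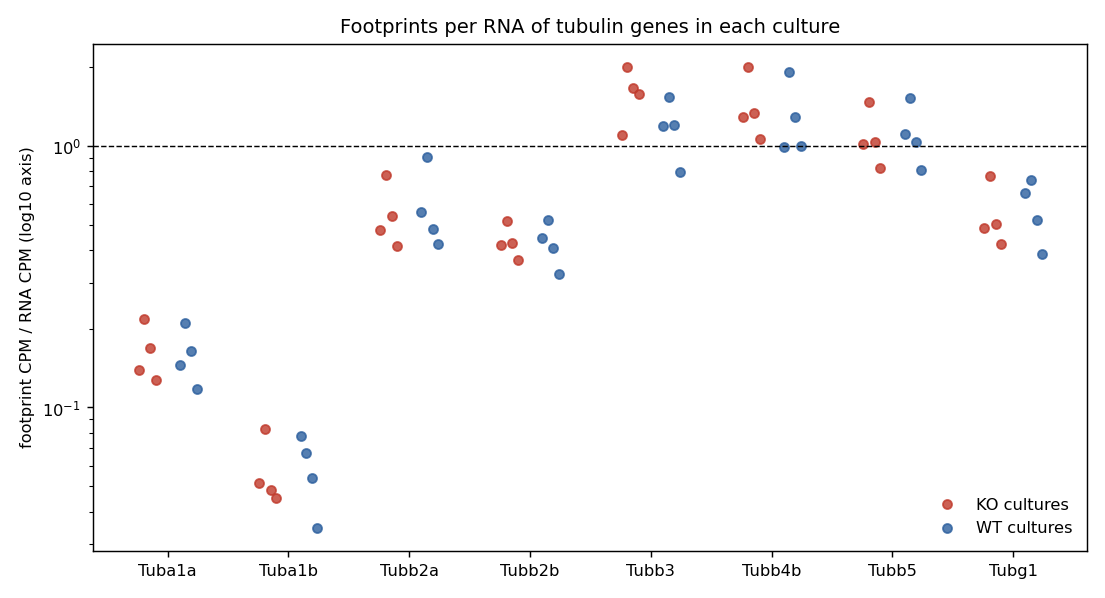
Footprint CPM over RNA CPM for 8 tubulin genes in each culture, on a log10 axis, with KO cultures in red left of WT cultures in blue and a dashed line at 1. Tuba1b (0.035 to 0.083) and Tuba1a (0.118 to 0.217) lie far below the other genes in every culture, and the genotypes overlap for each gene.

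The ratio did not differ detectably between genotypes. In the test of translational efficiency, the change in footprints beyond the change in RNA, 0 of 9 members and 0 of 10863 genes passed (edgeR adjusted p = 1 for each member). At an unadjusted p under 0.05 there were 0 members and 14 genes, or 0.129% of all genes, and DESeq2 and limma-voom also called 0 members. The KO over WT log2 difference was 0.03 for Tuba1a (-0.52 to 0.58), 0.17 for Tuba1b (-1.16 to 1.50), 0.00 for Tubb2b (-0.70 to 0.71) and -0.00 for Tubb5 (-1.06 to 1.05). Changes within these intervals were not detectable in this fit, with 4 cultures per genotype and no term for culture. The fit did not use that both libraries of a culture came from the same lysate. Taken culture by culture, the Tubb5 ratios ran from 0.820 to 1.47 in KO and from 0.806 to 1.52 in WT. Tuba4a was at 1.92 (-1.38 to 5.21), with 9.99 and 9.58 footprint CPM per RNA CPM in KO cultures 3 and 4, each over 8 RNA counts, and 0.646 to 1.51 in the other 5 cultures with RNA counts. Its log2 difference was 0.83 without WT culture 1 and 2.67 without KO culture 2.

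Genes that fold, nucleate, bind, sever or modify tubulin and genes of mitosis were taken from 9 lists with 143 genes, and 0 genes of any list passed between KO and WT in footprints, RNA or translational efficiency. Among the 14 subunits of the chaperonin and of prefoldin, which fold tubulin, the KO over WT median was 0.08 in footprints and 0.06 in RNA, and Cct2, a chaperonin subunit, was at 0.21 in footprints and 0.11 in RNA. For the 7 folding cofactors the medians were -0.03 in footprints and -0.05 in RNA. The gamma-tubulin ring complex and its partners had medians of 0.13 in footprints (19 tested) and 0.09 in RNA (18 tested), with Cdk5rap2, a centrosomal anchor of the ring complex, at -0.35 in footprints and -0.33 in RNA. Microtubule-associated proteins and stathmins had medians of -0.10 in footprints (28 tested) and -0.18 in RNA (25 tested), with Map2, a dendritic microtubule-binding protein, at -0.43 in footprints and -0.42 in RNA. All of these are log2 values that did not pass, beside a median of 0.01 over all genes in each assay.

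The tubulin-folding machinery lay on the other side of the typical footprint to RNA ratio from its main alpha substrates. All 14 chaperonin and prefoldin genes had more footprints than the typical gene at their RNA level, with a median log2 difference of 1.36 against 0.03 over all genes. The prefoldin genes Vbp1 (3.38, SE 0.25), Pfdn5 (2.43, SE 0.15) and Pfdn1 (2.28, SE 0.18) and the chaperonin gene Cct8 (1.86, SE 0.16) were among them, each with an edgeR adjusted p of at most 8.65e-08. Of 7 folding cofactors 4 were higher and 2 lower, with Tbca, which holds beta tubulin after its release from the chaperonin, at 3.14 (SE 0.17, adjusted p = 5.95e-10). Of 15 tubulin-modifying enzymes 0 were higher and 10 lower, among them Vash1, a carboxypeptidase that removes the terminal tyrosine of alpha tubulin, at -2.31 (SE 0.21, adjusted p = 1.67e-07).

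Of 20 genes of G2 and mitosis, 12 were higher and 0 lower, with a median of 1.13. The other lists were mixed. Of 11 tested genes of tubulin mRNA decay, 2 were higher and 3 lower: Scaper, which links TTC5 to the deadenylase, was at 1.58 (SE 0.41, edgeR adjusted p = 0.00313), and the deadenylase subunit Cnot6 was at -1.58 (SE 0.27, adjusted p = 1.14e-04). Of 18 genes of the gamma-tubulin ring complex and its partners, 7 were higher and 6 lower, with the ring subunit Tubgcp6 at -2.34 (SE 0.15, adjusted p = 3.21e-09). Of 25 microtubule-associated proteins and stathmins, 10 were higher and 9 lower, with Stmn1, which sequesters tubulin dimers, at 1.94 (SE 0.22, adjusted p = 1.26e-06) and Camsap1, which binds microtubule minus ends, at -1.58 (SE 0.10, adjusted p = 2.34e-09). Of 11 severing and depolymerising proteins 4 were higher and 4 lower, and of the 4 other tubulins tested 0 passed. These shares are read against 32.3% higher and 30.6% lower among all genes.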

How the data were processed

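Of the 2 deposited tables, the first holds estimated counts by gene as the authors made them (all whole numbers), and the second holds the authors' TPM with its decimals removed, so it is used as a score. Per the submitters' processing notes, the tools were RSEM 1.2.11, TopHat2 2.0.9, Bowtie2 2.1.0, bedtools 2.22.0, cutadapt 1.7.1 and SAMtools 0.0.19, with build mm10. The handling of reads that match several genes, of the identifiers and of strand is not given in the sources used here.

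The table has 20436 rows, and 27 of them carry a bare number for a name (0.244% to 0.422% of a library's counts) and entered no library size or test. The main test was edgeR 4.0.16 in R 4.3.3, with TMM scaling, filterByExpr at a minimum count of 10 and the two-sided quasi-likelihood F test, adjusted by Benjamini-Hochberg over all genes tested at a threshold of 0.05. RNA was fitted by genotype, and footprints by genotype and identifier length. Identifier length follows the culture sets, and the RNA fit held no term for them. The RNA intervals and p-values between genotypes therefore include differences between the culture sets, unlike those of footprints. Translational efficiency was the interaction of assay and genotype over 16 libraries, and footprints minus RNA the assay effect averaged over genotypes. Neither of these fits held a term for culture. CPM is TMM-scaled within an assay. Ratios of alpha to beta TPM are descriptions. DESeq2 1.42.0 and limma-voom (limma 3.58.1) were alternatives. The fits were tested on simulated data.

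Members, lists and sequences to show were chosen with earlier results of these data known. All 10 members are named. From a list, up to 4 genes past the threshold were eligible by smallest p, or else the 2 with the highest mean CPM. Gap43, Elavl3, Dcx, Rbfox3, Prox1, Syt1, Stmn2, Snap25, Tubb4a, Nes, Sox2, Aif1, Cx3cr1, Cldn5 and Sparcl1 are markers or were chosen after their values were seen. Sequences and positions come from RefSeq tables for GRCm38.p6, the assembly of mm10.

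The sample titles give the replicate numbers. Same-numbered KO and WT libraries deviated together from their group means (r between 0.525 and 0.634 in RNA, and between 0.404 and 0.569 in footprints). Every pair exceeded 0.1, so the numbers were taken to mark pairs. The main fits hold no pair term, and a replicate block was run as an alternative. In RNA the block gave Tuba1b a log2 fold change of 0.51 (SE 0.32), against 0.28 (SE 0.47) in the main fit. For Tubg1 it gave 0.44 (SE 0.28), against 0.28 (SE 0.47). For Tuba1c the SE was not smaller with the block, at 1.66 against 1.61. With the block, 0 members passed in RNA. Depth limits precision for Tuba1c and Tuba4a in the first place, and reads without identifiers are not independent molecules.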

Additional observations from a re-analysis of the deposited data

Results flagged for a closer look

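In 44 groups of 4 libraries, 1 library lay far from the other 3 in 5 cases, and chance alone flags about 1 in 20 groups. For Tuba1c, KO replicate 3 had 6.41 CPM in footprints, against 0.119 to 0.556 CPM in the other KO footprint libraries. The same culture had 73.1 CPM of Tuba1c in RNA, against 0.609 to 8.47 CPM in the other KO RNA libraries, so both libraries of that lysate were high. In WT footprints, Tuba1c replicate 4 had 0.108 CPM from 1 count and the others had 0. For Tuba4a, KO footprint replicate 1 had 2.57 CPM, against 11.7 to 13.0 CPM in the other KO footprint libraries. For Tubb4b, WT footprint replicate 3 had 1177 CPM. The rest of the WT footprint libraries had 674 to 753 CPM, and WT replicate 3 was also the highest of its group in Tubb4b RNA, at 918 CPM. What sets these libraries apart was not tested.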

How the results depend on the processing

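The count of members called between KO and WT was 0 in footprints, RNA and translational efficiency under every alternative run (DESeq2, limma-voom, other size factors, no filter, footprints without the identifier term, either identifier length alone, the replicate block, and leaving out each library). For translational efficiency, both libraries of a culture were left out together. Over all genes DESeq2 called 20 in RNA and 82 in footprints and limma-voom 0 in RNA, against 1 and 4 in the main fits. The replicate block, which treats same-numbered cultures as pairs, called 0 in both. Leaving out a library gave 0 to 1 genes in RNA and 0 to 14 in footprints. The 5 nt libraries alone gave 0 genes and the 8 nt libraries alone 2. Tuba4a in RNA was at 0.83 with limma-voom, and Tubb4b in footprints at -0.15 with 8 nt identifiers alone. For footprints minus RNA, leaving out both libraries of a culture gave 5 to 6 members called and 6309 to 6903 genes. The block by culture gave 8 members, and Tubg1 lost its call without the filter (edgeR adjusted p = 0.0566). For cultures 3 and 4 minus 1 and 2, DESeq2 called 3 members in footprints, adding Tuba1a and Tubg1, and 3398 genes, and 5 members in RNA, adding Tubb2b. Leaving out a library gave 0 to 3 members and 319 to 2222 genes in footprints, with 3 members without WT replicate 1, 2 without WT replicate 2 and 0 without WT replicate 3. In RNA it gave 1 to 4 members and 1091 to 2855 genes. Tuba1c, at 0.02 in the main fit, ranged there between -4.59 without KO replicate 3, a reversal, and 1.34 without WT replicate 3. The alpha to beta ratio without 1 replicate ranged from 0.0968 to 0.108 in KO footprints, 0.104 to 0.121 in WT footprints, 0.861 to 0.883 in KO RNA and 0.841 to 0.892 in WT RNA. Of 736 recomputed values of single members or summed paralogs, 697 were labelled the same, 23 lost a call and 9 gained one. A further 6 moved and 1 reversed. The label of the same includes values without a call that changed sign by less than 1 SE, such as Tuba1b in RNA without WT replicate 1 (-0.03). Counts of called genes are not in this tally. Counting depth limits Tuba1c and Tuba4a, which have a few counts in several libraries.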
